A study of Homo sapiens with 8 samples.

Results

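The granule protein genes described here were MPO, ELANE, PRTN3, AZU1, CTSG, LYZ, S100A8, S100A9 and S100A12, 9 genes chosen by name out of 20162 protein-coding genes. Their members in the data were all ChIP-seq peaks whose summit lay in the gene body on hg19 or within 20 kb of it. This rule took 161 of the 235023 peaks that lay on an autosome, X or Y, comprising 59 of 70833 peaks for AML1-ETO at 12 h, 67 of 105769 for AML1-ETO at 48 h, 18 of 28325 for ETO2-GLIS2 at 12 h and 17 of 30096 for ETO2-GLIS2 at 48 h. The 9 genes formed 5 loci, because AZU1, PRTN3 and ELANE stand in a row on chromosome 19 and S100A9, S100A12 and S100A8 on chromosome 1. Genes of the same row shared peaks, so their counts were not independent of each other.

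The study compared where 2 leukemia fusion proteins bind the genome in the same cellular background. U937 is an established human monoblastic leukemia line that can be driven towards monocytes or granulocytes. A retroviral Tet-On vector carried AML1-ETO or ETO2-GLIS2 with an N-terminal HA tag, and each stable line was derived from a single clone, #4 for AML1-ETO and #14 for ETO2-GLIS2. All 8 libraries came from cells given doxycycline at 5 µg/ml, for 12 h or for 48 h. For each fusion protein and time there was 1 ChIP library, made with anti-HA magnetic beads, and 1 input library. The titles and the treatment entry gave 12 h for the 12 h samples, whereas the longer treatment text named 48 h throughout, and the titles were followed. Each fusion protein was studied in 1 clone, so clone and fusion protein cannot be told apart. Uninduced cells were not analysed here, and neither U937 markers nor the level of the fusion proteins can be checked from lists of peaks.

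Granulocytes and monocytes store antimicrobial proteins in cytoplasmic granules, and genes for the azurophil or primary granule are switched on early, at the promyelocyte stage. This set includes the neutrophil serine proteases and myeloperoxidase, whereas lysozyme spans several granule types and is secreted by monocytes and macrophages. The S100 proteins of this set are calcium-binding proteins abundant in the cytosol of mature neutrophils and monocytes. In AML1-ETO the Runt domain of AML1 (RUNX1), which binds DNA, is fused to ETO, and ETO2-GLIS2 joins the ETO-family corepressor ETO2 to the zinc fingers of GLIS2.

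The sequences on which the account turns are shown first, each as up to 200 bases around a summit of a 48 h peak, on the plus strand of hg19, read from the GRCh37 assembly, with bases of annotated untranslated regions left out. Capitals mark matches on either strand to the Runt motif (TGTGGT or TGCGGT), the GLIS motif (TGGGGGG), the C/EBP motif (TTGCNNAA), the AP-1 motif (TGACTCA or TGAGTCA) or the E-box (CAGCTG). The CFD, CTSG, LYZ and S100A8 stretches are those of the strongest peak of their locus. The others are a selection made after their values were seen, from peaks at the starts of members bound by both fusion proteins, and 2 of them, at AZU1 and S100A12 under AML1-ETO summits, hold no match. This holds for the 48 h summits only. Around the AML1-ETO summits of 12 h at the same starts lay a C/EBP match at AZU1 and a Runt match at S100A12.
ELANE, ETO2-GLIS2 summit, chr19:850473-850672: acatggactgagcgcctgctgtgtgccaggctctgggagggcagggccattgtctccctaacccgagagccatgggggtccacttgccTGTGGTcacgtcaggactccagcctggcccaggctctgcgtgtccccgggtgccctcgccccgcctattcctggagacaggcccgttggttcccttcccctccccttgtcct
ELANE, AML1-ETO summit, chr19:850673-850872: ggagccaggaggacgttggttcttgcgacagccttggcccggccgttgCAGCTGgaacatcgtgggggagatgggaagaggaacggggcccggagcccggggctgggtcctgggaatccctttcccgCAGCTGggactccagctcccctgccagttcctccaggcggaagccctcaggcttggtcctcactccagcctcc
PRTN3, AML1-ETO summit, chr19:840775-840974: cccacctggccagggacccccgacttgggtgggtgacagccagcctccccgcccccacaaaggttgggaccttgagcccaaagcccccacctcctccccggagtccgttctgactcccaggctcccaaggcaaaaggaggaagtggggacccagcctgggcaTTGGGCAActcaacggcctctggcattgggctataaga
AZU1, ETO2-GLIS2 summit, chr19:827654-827836: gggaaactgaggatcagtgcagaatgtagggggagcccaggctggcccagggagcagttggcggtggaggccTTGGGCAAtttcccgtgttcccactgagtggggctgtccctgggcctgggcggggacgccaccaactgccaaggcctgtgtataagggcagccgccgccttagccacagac
AZU1, AML1-ETO summit, chr19:827903-828102: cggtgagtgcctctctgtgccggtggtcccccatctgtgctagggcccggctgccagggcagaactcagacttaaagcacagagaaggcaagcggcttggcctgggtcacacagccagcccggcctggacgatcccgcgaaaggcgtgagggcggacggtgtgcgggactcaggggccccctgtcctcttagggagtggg
Upstream of the CFD start, AML1-ETO summit, chr19:859304-859452: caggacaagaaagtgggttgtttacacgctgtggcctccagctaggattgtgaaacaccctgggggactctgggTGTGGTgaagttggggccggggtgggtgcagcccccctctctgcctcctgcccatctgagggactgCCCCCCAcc
CTSG, AML1-ETO summit, chr14:25045490-25045689: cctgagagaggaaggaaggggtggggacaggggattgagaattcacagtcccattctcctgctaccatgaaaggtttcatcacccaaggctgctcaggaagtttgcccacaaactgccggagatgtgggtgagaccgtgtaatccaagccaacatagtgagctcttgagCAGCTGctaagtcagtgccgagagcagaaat
LYZ upstream, AML1-ETO summit, chr12:69735228-69735427: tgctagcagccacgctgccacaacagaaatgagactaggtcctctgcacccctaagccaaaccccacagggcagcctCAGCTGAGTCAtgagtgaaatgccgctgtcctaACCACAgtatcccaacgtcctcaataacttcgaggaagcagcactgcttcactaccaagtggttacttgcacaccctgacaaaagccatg
LYZ upstream, ETO2-GLIS2 summit, chr12:69734907-69735106: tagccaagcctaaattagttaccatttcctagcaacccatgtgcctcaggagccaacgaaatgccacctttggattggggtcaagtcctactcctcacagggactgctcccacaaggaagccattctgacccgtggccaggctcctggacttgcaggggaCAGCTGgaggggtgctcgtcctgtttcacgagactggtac
S100A9, AML1-ETO summit, chr1:153330104-153330303: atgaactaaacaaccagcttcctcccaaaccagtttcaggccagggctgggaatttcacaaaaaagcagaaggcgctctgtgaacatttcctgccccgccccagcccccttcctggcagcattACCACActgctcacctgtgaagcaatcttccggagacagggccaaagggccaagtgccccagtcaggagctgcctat
S100A12, AML1-ETO summit, chr1:153348199-153348398: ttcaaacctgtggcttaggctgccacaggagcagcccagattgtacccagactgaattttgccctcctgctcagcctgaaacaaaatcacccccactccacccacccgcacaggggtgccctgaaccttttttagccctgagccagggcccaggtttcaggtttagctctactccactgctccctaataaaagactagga
S100A8 downstream, AML1-ETO summit, chr1:153359136-153359335: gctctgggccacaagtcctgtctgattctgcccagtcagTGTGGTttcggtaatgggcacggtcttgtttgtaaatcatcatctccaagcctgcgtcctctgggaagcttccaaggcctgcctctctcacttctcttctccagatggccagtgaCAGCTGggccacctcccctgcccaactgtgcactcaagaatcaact

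The ELANE stretches are adjacent, with a Runt match under the ETO2-GLIS2 summit and 2 E-boxes under the AML1-ETO summit. The PRTN3 stretch and the AZU1 stretch for ETO2-GLIS2 hold the same C/EBP match. Around the ETO2-GLIS2 summits at the PRTN3 start, not shown, lay a GLIS and a C/EBP match at 12 h and at 48 h. The same held for the AML1-ETO summit of 12 h there. The stretch upstream of the CFD start holds a Runt and a GLIS match. The CTSG stretch, at a site found for AML1-ETO in both its lists and for ETO2-GLIS2 in neither, holds an E-box and no Runt match. In the LYZ stretch for AML1-ETO the E-box and the AP-1 match overlap in a single run of capitals, with a Runt match further along.

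Peaks were described by their distance to the canonical transcript start of the gene (negative upstream), their width, and their rank by −log10 q in their own list, where rank 1 is the strongest and peaks of equal q share the better rank. Rank is also given as a percentage of the length of the list, so that low percentages are strong peaks. Each condition had 1 library, so differences between conditions carry no replicate check, no test was made, and 12 h against 48 h mixes time with library. Ranks, folds and q values describe a peak within its own list and were not adjusted for sequencing depth. The −log10 q values and the number of listed peaks depend on depth. The read totals of the libraries, which the study lists and which differ between the fusion proteins, were not used here.

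At least 1 peak lay within 20 kb of 9 of 9 granule protein genes for AML1-ETO at 12 h, 8 at 48 h, and 7 for ETO2-GLIS2 at either time. Over all protein-coding genes the shares were 77.6%, 80.3%, 66.4% and 66.0%, in the order AML1-ETO 12 h, AML1-ETO 48 h, ETO2-GLIS2 12 h and ETO2-GLIS2 48 h, so that having a peak nearby was common and did not set these genes apart. A summit within 1 kb of an annotated transcript start, called a promoter peak, was found for 7, 7, 5 and 5 of the 9 genes in the same order, against 54.0%, 59.8%, 42.8% and 45.7% of all protein-coding genes. A transcript start lay inside a peak for 8, 8, 5 and 5 of them, against 44.6%, 54.8%, 33.2% and 37.7%. Promoter peaks stood in all 4 lists at ELANE, PRTN3, AZU1 and S100A9, 4 of 9 genes, against 35.8% of all protein-coding genes.

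The number of peaks per gene stood further from the rest of the genome. The median granule protein gene had 14 and 18 peaks of AML1-ETO in its window in the 12 h and 48 h lists, against 3 and 5 over all protein-coding genes, and 3 ETO2-GLIS2 peaks at either time against 1. The median share of the window covered by AML1-ETO peaks was 26.0% at 12 h and 33.6% at 48 h, against 2.26% and 4.45% over all genes. For ETO2-GLIS2 it was 3.24% and 2.06%, against 0.678% and 0.757%. Peak strength did not follow for both proteins. Among genes with a peak, the strongest AML1-ETO peak had a median rank of 3.47% and 5.29% of its list, against 11.2% and 6.73% over all genes. For ETO2-GLIS2 this median was weaker than over all genes, at 27.4% and 42.8% against 23.1% and 19.5%. As 6 of the 9 genes belong to the clusters on chromosomes 1 and 19, these medians largely describe those 2 clusters. The AML1-ETO lists are also longer, and when the 28325 strongest peaks of each list were taken, the 9 genes held 20 and 17 AML1-ETO peaks against 18 and 16 ETO2-GLIS2 peaks.

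**Figure D1:**
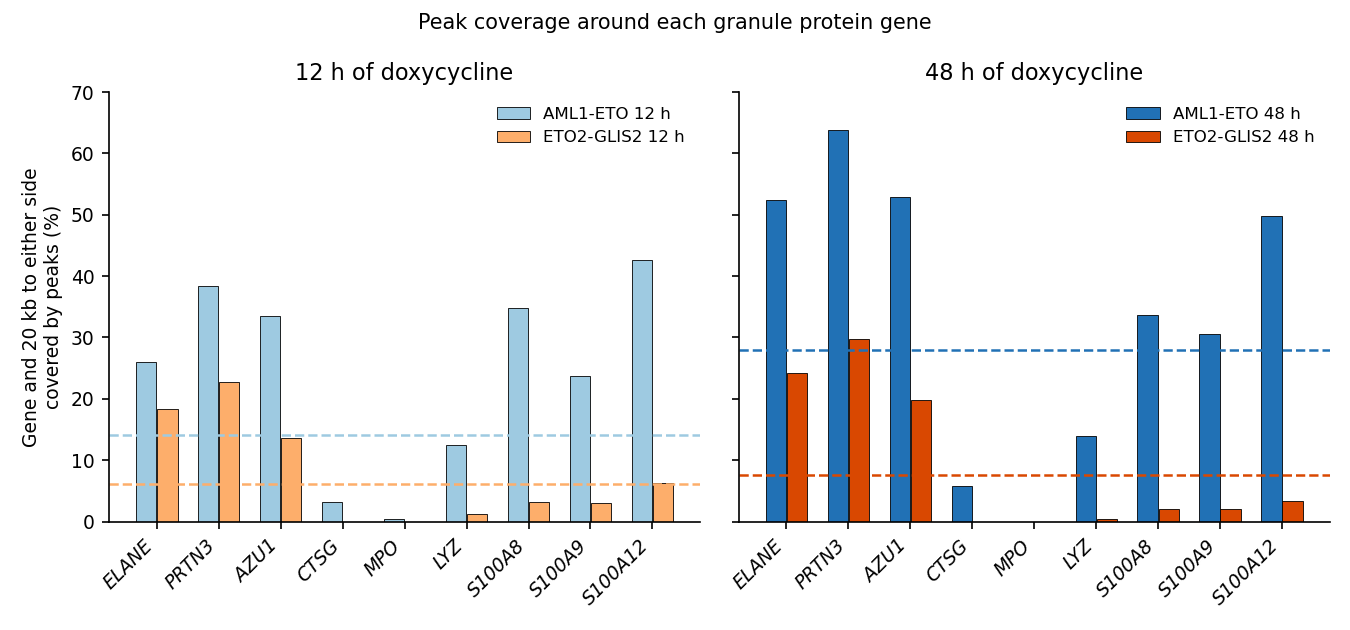
Bars give the percentage of each gene and 20 kb to either side that is covered by peaks (vertical axis, %), for 12 h (left) and 48 h (right), blue for AML1-ETO and orange for ETO2-GLIS2. The dashed line of the same colour is the level that 10% of all protein-coding genes exceed. At 48 h the AML1-ETO bars of ELANE, PRTN3, AZU1 and the 3 S100 genes stand above that line, those of CTSG, LYZ and MPO below it, and for ETO2-GLIS2 only the chromosome 19 genes stand above it.

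Among the loci, the window of the serine protease genes on chromosome 19 had the largest covered share, for both fusion proteins. By single gene, the largest AML1-ETO share at 12 h was that of S100A12 (42.6%), ahead of PRTN3 (38.3%). The chromosome 19 window also holds other genes, and 23 of its 36 AML1-ETO peaks at 48 h were nearest to a start outside the set. ELANE encodes neutrophil elastase, PRTN3 proteinase 3, and AZU1 azurocidin, an antimicrobial relative of the proteases that has lost enzyme activity. Over the 71.2 kb from 20 kb before AZU1 to 20 kb after ELANE, AML1-ETO peaks covered 30.1% at 12 h and 50.8% at 48 h, and ETO2-GLIS2 peaks 15.7% and 21.0%. Of the bases covered by ETO2-GLIS2, 81.3% at 12 h and 88.3% at 48 h were also covered by AML1-ETO, whereas 42.5% and 36.6% of the AML1-ETO bases were also covered by ETO2-GLIS2.

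At ELANE the promoter peak was broad and lay over the start of a longer annotated transcript. For AML1-ETO it was 3250 bp wide at 12 h (rank 8898, 12.6%, 11.5-fold) and 6987 bp wide at 48 h (rank 5723, 5.41%, 20.7-fold), with summits 1500 and 1530 bp upstream of the canonical start. For ETO2-GLIS2 it was 4069 bp wide at 12 h (rank 1724, 6.09%, 24.6-fold) and 4578 bp wide at 48 h (rank 1565, 5.20%, 35.3-fold), with summits 1742 and 1730 bp upstream. The canonical ELANE start, at base 852303 of chromosome 19, lay inside the peak in all 4 lists, but the summits were 211 to 453 bp from the other annotated start, at base 851014. Summits of the fusion proteins were 242 bp apart at 12 h and 200 bp apart at 48 h. These are the summits under which the adjacent ELANE stretches shown above were read.

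At PRTN3 the promoter peaks of both proteins were centred on the canonical start. AML1-ETO summits lay 69 bp upstream at 12 h (1145 bp wide, rank 6448, 9.10%) and 124 bp upstream at 48 h (3861 bp wide, rank 8122, 7.68%). ETO2-GLIS2 summits lay in exon 1, 28 bp downstream at 12 h (995 bp wide, rank 2234, 7.89%) and 11 bp downstream at 48 h (1894 bp wide, rank 2739, 9.10%). By rank percentage alone, PRTN3 thus had about the same standing in all 4 lists, which are of unlike length. By fold enrichment it did not. The AML1-ETO peak stood at 14.6-fold in the 12 h list and 16.1-fold in the 48 h list. The ETO2-GLIS2 peak was higher, 24.2-fold at 12 h, then 23.7-fold at 48 h. A second, weak AML1-ETO peak within 1 kb of a shorter transcript lay in exon 3, about 3 kb into the gene, at rank 30094 at 12 h and 83671 at 48 h, and overlapped no ETO2-GLIS2 peak.

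AZU1 had the strongest AML1-ETO promoter peak among the members at either time. At 12 h the summit lay 71 bp upstream of the canonical start in a peak 2895 bp wide (rank 2455, 3.47%, 25.5-fold), with a separate peak 2495 bp wide further upstream (rank 2988, 4.22%). At 48 h a single AML1-ETO peak 5938 bp wide spanned both annotated starts (rank 3233, 3.06%, 29.4-fold), its summit 166 bp downstream of the canonical start, in intron 1. It overlapped 3 peaks of the 12 h list, the weakest of which, 743 bp past the upstream start, was 260 bp wide at rank 63799.

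ETO2-GLIS2 was listed at the same AZU1 start, with narrower peaks. Its summits were 87 bp upstream at 12 h (702 bp wide, rank 4534, 16.0%) and 83 bp upstream at 48 h (949 bp wide, rank 4309, 14.3%), 16 and 249 bp from those of AML1-ETO. At 48 h another ETO2-GLIS2 peak had its summit 2 bp from the upstream start of AZU1 (786 bp wide, rank 4899, 16.3%).

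The strongest peak of the chromosome 19 window did not lie at a member of the set, which was chosen by name and left out CFD. It lay downstream of ELANE, 7101 to 7296 bp from its canonical start, at the start of CFD, which encodes complement factor D, the serine protease adipsin. For ETO2-GLIS2 this peak stood at rank 63 of 28325 at 12 h and rank 55 of 30096 at 48 h, with 121-fold enrichment at either time, and for AML1-ETO at rank 1530 (2.16%, 31.6-fold) and rank 2337 (2.21%, 34.4-fold). Its summits were 49 to 75 bp from the nearest annotated CFD start, which was not the same start in all 4 lists. The 49 bp belonged to AML1-ETO at 48 h, whose summit lay just upstream of the first CFD start, at base 859453. In the other lists the nearest start was a later one. The best ranks counted for ELANE and PRTN3 in a 20 kb window are therefore those of the CFD peak. The GLIS and Runt matches of the stretch upstream of the CFD start belong to the AML1-ETO summit at 48 h. The 200 bp around the CFD summit in each of the other 3 lists, both ETO2-GLIS2 lists included, held 1 E-box and neither a Runt nor a GLIS match.

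**Figure D2:**
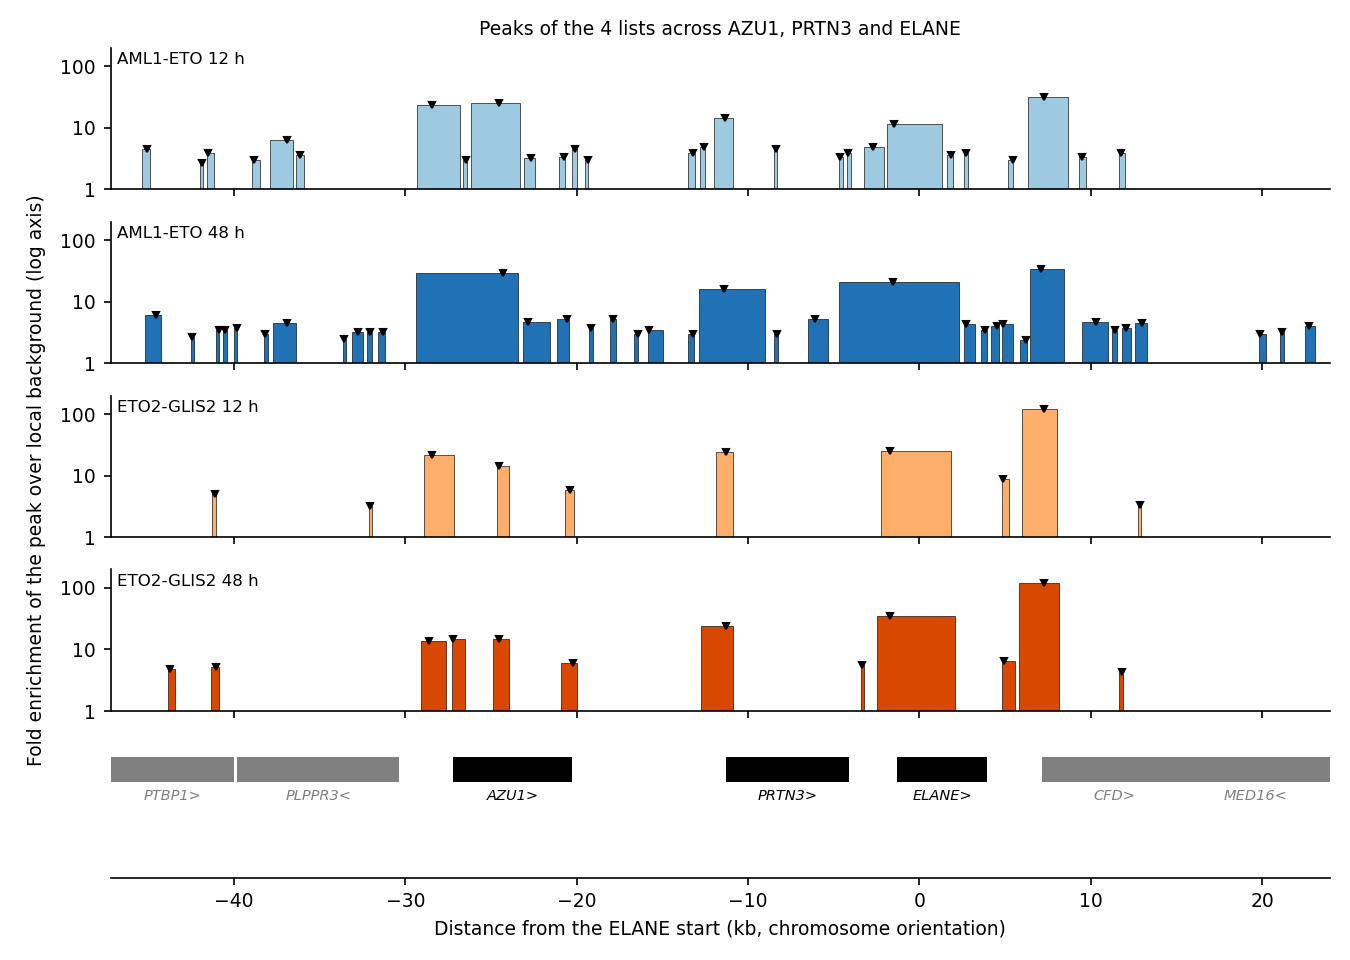
Each panel is 1 list, and each box a peak, placed by its distance from the canonical ELANE start (horizontal axis, kb) and drawn as high as its fold enrichment (vertical axis, log scale), with a triangle at its summit; black bars below are the granule protein genes, grey bars their neighbours, and the angle bracket gives the strand. Peaks stand at the starts of AZU1, PRTN3, ELANE and CFD in all 4 panels, the AML1-ETO peaks are wider at 48 h than at 12 h at AZU1, PRTN3 and ELANE, and the CFD peak is the highest in every panel, at 121-fold for ETO2-GLIS2.

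CTSG, which encodes cathepsin G, the third protease of the azurophil granule, lies by itself on chromosome 14 and differed from its relatives. AML1-ETO was listed at its start at both times, with a summit 136 bp upstream at 12 h (1141 bp wide, rank 4801, 6.78%, 17.6-fold) and 134 bp upstream at 48 h (1198 bp wide, rank 5554, 5.25%, 21.3-fold). These summits were 2 bp apart. ETO2-GLIS2 had no peak within 20 kb of CTSG at either time, and its nearest summits were 45.7 kb from the start at 12 h and 84.1 kb at 48 h. Weak AML1-ETO peaks in intron 1, 439 bp past the start at 12 h (rank 47259) and 558 bp at 48 h (rank 99994), completed the promoter region. CTSG was the only granule protein gene with an AML1-ETO promoter peak at both times and no ETO2-GLIS2 peak in the window at either time, a pattern held by 2.59% of all protein-coding genes. A peak below the threshold of the deposited lists would not be seen, so the absence is that of a listed peak.

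MPO, which encodes myeloperoxidase, the haem enzyme that makes hypochlorous acid in the azurophil granule, had nearly no listed binding. Its only peak was for AML1-ETO at 12 h, 186 bp wide, 17.0 kb downstream of the start and beyond the end of the gene, at rank 26953 (38.1%, 4.86-fold). This peak was absent from the AML1-ETO list at 48 h. The nearest summits in the other lists lay 33.0 kb downstream for AML1-ETO at 48 h, and 45.6 and 43.7 kb upstream for ETO2-GLIS2 at 12 h and 48 h. MPO was the only granule protein gene with no peak in either 48 h list, as were 19.1% of all protein-coding genes.

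LYZ, which encodes lysozyme, the enzyme that cleaves bacterial cell wall peptidoglycan, had AML1-ETO peaks at its start and a stronger one upstream. The promoter summit lay 52 bp upstream at 12 h (547 bp wide, rank 20803, 29.4%, 5.77-fold) and 17 bp downstream, in exon 1, at 48 h (1085 bp wide, rank 24132, 22.8%, 5.77-fold). A weaker AML1-ETO peak in intron 1 was listed at 12 h only as a separate peak (772 bp past the start, rank 34326), and at 48 h the wider promoter peak overlapped it. The strongest AML1-ETO peak of the window lay 6868 bp upstream at 12 h (2566 bp wide, rank 11030, 15.6%, 9.29-fold) and 6833 bp upstream at 48 h (3860 bp wide, rank 11841, 11.2%, 11.5-fold).

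ETO2-GLIS2 had no promoter peak at LYZ at either time. At 48 h its only peak in the window, 190 bp wide (rank 13219, 43.9%), lay inside the upstream AML1-ETO peak, with a summit 321 bp from that of AML1-ETO and 7154 bp from the LYZ start. Both LYZ stretches shown above, under these 2 summits, hold an E-box. At 12 h the ETO2-GLIS2 list held instead a peak 266 bp from the start of the next gene, YEATS4 (364 bp wide, rank 13757, 48.6%), where AML1-ETO was listed at both times (ranks 11474 and 12966), and a weak peak 15486 bp upstream of LYZ (rank 22872). No ETO2-GLIS2 peak of the LYZ window was thus found at both times.

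**Figure D3:**
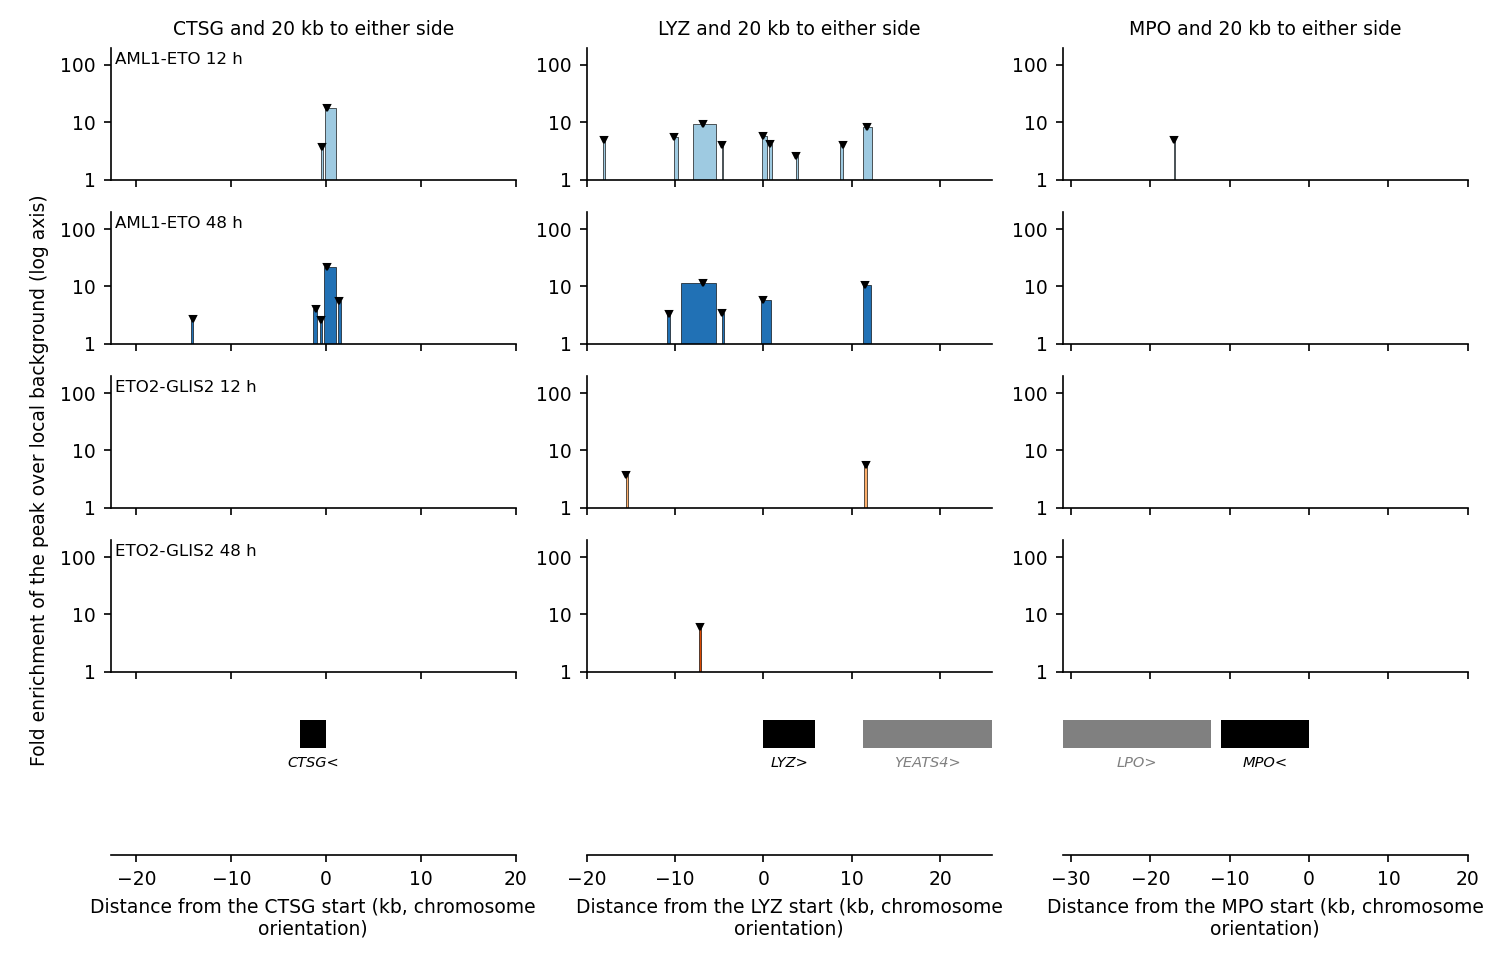
Columns are CTSG, LYZ and MPO with 20 kb to either side and rows the 4 lists; boxes are peaks placed by distance from the gene's canonical start (horizontal axis, kb, chromosome orientation), with height giving fold enrichment (vertical axis, log scale) and triangles the summits. AML1-ETO peaks stand at the CTSG and LYZ starts at both times, the ETO2-GLIS2 rows are empty for CTSG and MPO, and the MPO column holds a single narrow AML1-ETO peak at 12 h.

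The S100 genes on chromosome 1 had broad AML1-ETO peaks at S100A12 and S100A8, and ETO2-GLIS2 peaks of at most 7.75-fold. Most AML1-ETO peaks of the locus were not broad, with a median width of 335 bp at 12 h and 498 bp at 48 h. For ETO2-GLIS2 the medians were 264 and 334 bp. The median fold enrichment at the locus was 3.75 and 3.64 for AML1-ETO, and higher for ETO2-GLIS2, at 5.04 and 5.03. S100A8 and S100A9 encode the subunits of calprotectin, a calcium-binding complex that withholds zinc and manganese from microbes, and S100A12 encodes calgranulin C, a ligand of the receptor RAGE. AML1-ETO peaks covered 26.3% at 12 h and 30.5% at 48 h of the 73.2 kb around the 3 genes, in 20 and 21 peaks, and ETO2-GLIS2 peaks covered 3.62% and 1.96%, in 6 and 4 peaks. The AML1-ETO lists are longer, and among the 28325 strongest peaks of each list AML1-ETO had 5 and 4 here and ETO2-GLIS2 6 and 3. Of the bases covered by ETO2-GLIS2, 82.3% at 12 h and 99.2% at 48 h lay in AML1-ETO peaks, whereas 11.3% and 6.37% of the AML1-ETO bases lay in ETO2-GLIS2 peaks.

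S100A9 was the only S100 gene with a promoter peak in all 4 lists. AML1-ETO summits lay 98 bp upstream at 12 h (606 bp wide, rank 10970, 15.5%, 9.61-fold) and 126 bp upstream at 48 h (1590 bp wide, rank 20164, 19.1%, 6.29-fold). ETO2-GLIS2 summits lay 99 bp upstream at 12 h (794 bp wide, rank 7758, 27.4%, 7.57-fold) and 39 bp upstream at 48 h (399 bp wide, rank 14058, 46.7%, 5.45-fold). At 12 h the summits of the fusion proteins were 1 bp apart and at 48 h 87 bp apart, and the S100A9 stretch shown above holds a Runt match. For both proteins the rank percentage was weaker in the 48 h list.

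S100A12 had a strong AML1-ETO promoter peak. It was 3411 bp wide at 12 h (rank 2516, 3.55%, 24.9-fold), its summit 84 bp into the gene in intron 1, and 3240 bp wide at 48 h (rank 6782, 6.41%, 16.2-fold), its summit 202 bp upstream. ETO2-GLIS2 was listed there only at 48 h, 146 bp into the gene, in a peak 269 bp wide at rank 28339 of 30096 (94.2%, 3.44-fold), close to the end of the list. At 12 h the nearest ETO2-GLIS2 summit lay 9.48 kb downstream of the S100A12 start (rank 21744).

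At S100A8 the binding was a broad domain with its summit past the 3′ end of the gene. The AML1-ETO peak was 7449 bp wide at 12 h (rank 1140, 1.61%, 31.0-fold) and 8048 bp wide at 48 h (rank 5632, 5.32%, 19.7-fold), the widest member peak in each list, with summits 4268 and 4313 bp downstream of the S100A8 start. The start itself lay inside these peaks, so S100A8 counts as covered although it has no AML1-ETO promoter peak by summit. ETO2-GLIS2 had a narrow peak at the same summit, 898 bp wide at 12 h (rank 8992, 31.7%, 7.75-fold) and 577 bp wide at 48 h (rank 12880, 42.8%, 6.19-fold), 123 and 127 bp from that of AML1-ETO. The S100A8 stretch shown above, under the AML1-ETO summit at 48 h, holds a Runt match and an E-box.

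ETO2-GLIS2 was listed at the S100A8 start only at 12 h. That peak was 246 bp wide, 128 bp upstream, at rank 21752 (76.8%, 3.10-fold), and a further peak within 1 kb of an alternative start, just past the 3′ end of the gene, was 184 bp wide at rank 27024 (95.4%). Both lay within the broad AML1-ETO peak and neither was found at 48 h.

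**Figure D4:**
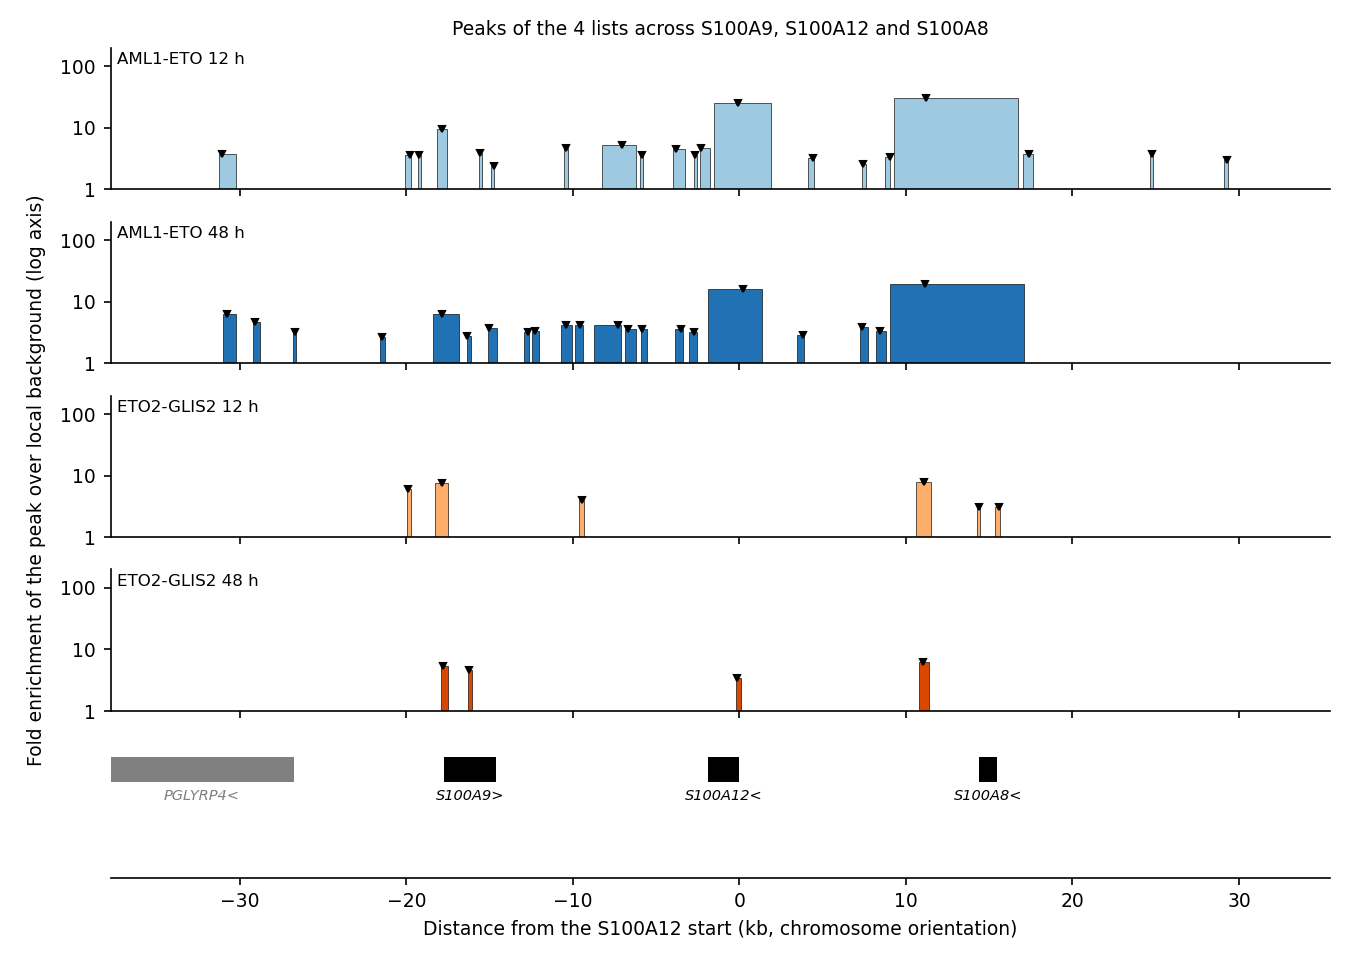
Panels, boxes and triangles show the peaks of the 4 lists by distance from the S100A12 start (horizontal axis, kb, chromosome orientation), with height giving fold enrichment (vertical axis, log scale) and bars below giving the genes. The broad AML1-ETO peak over S100A8, 7449 bp wide at 12 h and 8048 bp at 48 h, and the peak at S100A12 stand out. The ETO2-GLIS2 panels show peaks of under 10-fold at S100A9 and downstream of S100A8.

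In their own lists, the promoter peaks of the members ranked in different orders for the fusion proteins. For AML1-ETO at 48 h the order by rank percentage was AZU1 at 3.06%, CTSG at 5.25%, ELANE at 5.41%, S100A12 at 6.41%, PRTN3 at 7.68%, S100A9 at 19.1% and LYZ at 22.8%. For ETO2-GLIS2 at 48 h it was ELANE at 5.20%, PRTN3 at 9.10%, AZU1 at 14.3%, S100A9 at 46.7% and S100A12 at 94.2%. With 1 library for each, the spread of these ranks is unknown, and neighbours such as CTSG and ELANE in the AML1-ETO order cannot be ranked against each other.

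Sharing between fusion proteins was close to that of the whole lists. Of the granule gene peaks, 15 of 59 AML1-ETO peaks at 12 h (25.4%, 95% CI 15.0 to 38.4%, exact Clopper-Pearson) overlapped an ETO2-GLIS2 peak of the same time, against 26.2% of the list, and 14 of 67 at 48 h (20.9%, 11.9 to 32.6%) against 17.8%. For ETO2-GLIS2, the overlap with AML1-ETO was found for 14 of 18 peaks at 12 h (77.8%, 52.4 to 93.6%) against 74.5%, and 16 of 17 at 48 h (94.1%, 71.3 to 99.9%) against 83.4%. In each list the share of the whole list lay inside the interval of the granule gene peaks. The intervals cover counting error only, and take peaks of the same locus as if they were independent.

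Most shared AML1-ETO peaks lay in the chromosome 19 cluster, which also held the most peaks. Exact 95% intervals of the shared percentage at 12 h were 22.4 to 61.2% there and 3.21 to 37.9% in the S100 cluster. At 48 h they were 12.1 to 42.2% and 5.45 to 41.9%. The intervals overlapped at both times, but overlap of intervals is not a test, and a difference in sharing between the clusters was not tested. By bases, 42.5% and 36.6% of the AML1-ETO cover on chromosome 19 was also covered by ETO2-GLIS2. In the S100 window this share was 11.3% and 6.37%. In the chromosome 19 cluster 11 of 27 AML1-ETO peaks at 12 h and 9 of 36 at 48 h were shared, against 3 of 20 and 4 of 21 in the S100 cluster, 1 of 9 and 1 of 5 at LYZ, and none of 2 and none of 5 at CTSG. The only ETO2-GLIS2 peak at 48 h that overlapped no AML1-ETO peak lay at the far side of the chromosome 19 window, 16561 bp upstream of the AZU1 gene body (420 bp wide, rank 18559, 61.7%).

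Between times, 42 of 59 AML1-ETO granule gene peaks of 12 h were found again at 48 h (71.2%, 57.9 to 82.2%), against 73.9% of the list, and 33 of 67 of those of 48 h had been listed at 12 h (49.3%, 36.8 to 61.8%), against 36.8%, which stood at the lower bound of that interval. For ETO2-GLIS2, 10 of 18 peaks of 12 h (55.6%, 30.8 to 78.5%) were found at 48 h against 60.6%, and 11 of 17 of those of 48 h at 12 h (64.7%, 38.3 to 85.8%) against 54.6%. The promoter peaks of ELANE, PRTN3, AZU1 and S100A9 were found at both times for both proteins. The members of the ETO2-GLIS2 lists that appeared at a single time included all 3 peaks of LYZ and the promoter peaks of S100A8 and S100A12.

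Member peaks ranged from strong to just past the threshold. The strongest 10% of the AML1-ETO lists included 7 peaks at 12 h and 7 at 48 h, whereas 33 and 30 belonged to the weaker 50%. For ETO2-GLIS2, 4 peaks at 12 h and 3 at 48 h belonged to the strongest 10%, all of them in the chromosome 19 cluster, and 7 and 5 to the weaker 50%. Median widths were 367 and 474 bp for AML1-ETO and 392 and 577 bp for ETO2-GLIS2, against 360, 415, 382 and 399 bp over the 4 whole lists.

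By position, 31 of 59 AML1-ETO peaks at 12 h lay upstream of the member nearest to them, 17 downstream, 8 in introns and 3 in exons, and at 48 h 30, 25, 8 and 4 of 67. For ETO2-GLIS2 9 of 18 lay upstream, 7 downstream and 2 in exons at 12 h, and 9 of 17 upstream, 5 downstream, 2 in introns and 1 in an exon at 48 h. The nearest coding start of a peak was that of a gene outside the set for 14, 27, 6 and 5 peaks, in the order AML1-ETO 12 h, AML1-ETO 48 h, ETO2-GLIS2 12 h and ETO2-GLIS2 48 h, mostly in the dense chromosome 19 region.

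The rule cuts at 20 kb. The farthest peak inside was 18053 bp from a gene body for AML1-ETO at 12 h, at LYZ, with rank 26953, and the nearest outside was 21910 bp from MPO with rank 24341. At 48 h they lay 18801 and 20624 bp away for AML1-ETO, both beyond ELANE, with ranks 44473 and 39002. For ETO2-GLIS2 the inner ones were 15486 bp away at LYZ (rank 22872) at 12 h and 16561 bp away at AZU1 (rank 18559) at 48 h. The outer ones were 21961 bp (rank 18171) and 25604 bp (rank 4899, 16.3%) from AZU1.

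Sequence motifs were counted in the 200 bp centred on each summit, on both strands, beside the share of all peaks of the same list that hold the motif. For AML1-ETO at 48 h a Runt match lay under 15 of 67 granule gene peaks (22.4%, against 24.9% of the list), an E-box under 10 (14.9%, against 13.7%), a C/EBP match under 5 (7.46%, against 9.52%), a GLIS match under 4 (5.97%, against 3.83%) and an AP-1 match under 1 (1.49%, against 4.74%). For ETO2-GLIS2 at 48 h Runt, GLIS and E-box matches each lay under 5 of 17 peaks (29.4%), against 21.9%, 7.89% and 16.8% of the list, C/EBP matches under 2 (11.8%, against 8.60%) and AP-1 matches under none (against 4.84%). The ETS motif, searched only in the form CCGGAAGT, was found under none of these peaks, with 0.579% and 1.38% of the lists holding it. Other forms of ETS site were not searched, nor were other forms of the other motifs, such as E-boxes other than CAGCTG. Their absence cannot be read from these counts or from the stretches shown. These counts are small, and at 12 h a GLIS match lay under 2 of 18 ETO2-GLIS2 peaks (11.1%, against 7.72%).

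A list of 15 other genes for granule or secreted effector proteins of neutrophils and monocytes was counted in the same way. A peak within 20 kb was found for 13, 14, 12 and 12 of the 15, and a promoter peak for 10, 11, 8 and 8, in the order AML1-ETO 12 h, AML1-ETO 48 h, ETO2-GLIS2 12 h and ETO2-GLIS2 48 h. Over all protein-coding genes these shares were 77.6%, 80.3%, 66.4% and 66.0% for a peak and 54.0%, 59.8%, 42.8% and 45.7% for a promoter peak. The median number of peaks was 9, 13, 2 and 2, and the median covered share 9.83%, 18.4%, 2.02% and 2.38%, below the medians of the 9 genes except for the last. Promoter peaks in both 48 h lists were found at 8 of the 15, against 43.8% of all protein-coding genes. CAMP, the precursor of the antimicrobial peptide LL-37, had a promoter peak at rank 233 (0.220%, 45.1-fold) for AML1-ETO and rank 2739 (9.10%) for ETO2-GLIS2. BPI, which binds bacterial lipopolysaccharide, had its own at rank 1286 (1.22%) and rank 2540 (8.44%), and CTSC, the dipeptidyl peptidase that activates the granule serine proteases, at rank 2673 (2.53%) and rank 8726 (29.0%).

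Among the eosinophil ribonucleases, RNASE2 had promoter peaks at rank 3395 (3.21%) for AML1-ETO and 7903 (26.3%) for ETO2-GLIS2, and RNASE3 at 12354 (11.7%) and 10929 (36.3%). The rank percentage was lower for ETO2-GLIS2 at CTSD and GUSB, 2 lysosomal enzymes, unlike at CTSC, with CTSD at rank 7387 (6.98%) for AML1-ETO and 1425 (4.73%) for ETO2-GLIS2, and GUSB at 10405 (9.84%) and 1082 (3.60%). CHI3L1, a chitinase-like glycoprotein, stood at 7334 (6.93%) and 17914 (59.5%). OLFM4 was the only gene of the 15 with no peak in either 48 h list.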

How the data were processed

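The authors immunoprecipitated HA-tagged AML1-ETO or ETO2-GLIS2 from U937 clones after 12 h or 48 h of doxycycline and deposited 1 peak list for each of the 4 ChIP libraries. The submitters' processing notes name Bowtie2 2.2.9, SAMtools 1.7, MACS2 2.1.1.20160309 and deepTools, and hg19. MACS2 settings and the handling of duplicates were not given in the sources used here. In the deposited lists, column 5 is a score, column 7 the fold enrichment, columns 8 and 9 the −log10 p and −log10 q value given by the peak caller, and column 10 the distance of the summit from the peak start. The smallest deposited −log10 q was 1.30 to 1.31. The study lists read totals for the libraries, which differ between the peak lists compared. They were not used here, so values were not adjusted for depth, and the input libraries entered through the enrichments only.

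Only chromosomes 1 to 22, X and Y were used (60 to 131 peaks per list were left out), ranked by −log10 q with ties given the best shared rank, and assigned to genes of GENCODE release 44 on GRCh37. A peak was shared where it overlapped a peak of the other fusion protein at the same time by at least 1 bp. Named were all members, their promoter peaks, the strongest peak of each locus, genes whose start is nearest to a member peak where they matter, and the other granule genes with promoter peaks in both 48 h lists. Sequences were read from the GRCh37 assembly. The analysis used Python 3.11.15, pandas 2.3.3, numpy 2.4.6, scipy 1.17.1 and pysam 0.24.0, and the scripts were tested on simulated data. No p-value was computed. Intervals are exact 95% Clopper-Pearson intervals. The members and lists were chosen with earlier results of these data known.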

Additional observations from a re-analysis of the deposited data

How the results depend on the processing

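Of 92 alternative values for 32 counts, 59 stayed within 1.5 times the value given. Peak counts are in the order AML1-ETO 12 h, AML1-ETO 48 h, ETO2-GLIS2 12 h, ETO2-GLIS2 48 h, and only values outside that limit are printed. Keeping only −log10 q values from 5 upwards, AML1-ETO peaks fell to 25 and 30, and from 10 upwards peaks came to 13, 13, 9 and 6 and genes with an ETO2-GLIS2 peak at 48 h to 3. With the 28325 strongest peaks of each list, AML1-ETO peaks were 20 and 17, and with peaks within 1 kb joined, 30 and 29. A window of 5 kb left 40 AML1-ETO peaks at 48 h, and a window of 50 kb took 26 ETO2-GLIS2 peaks at 48 h. Without the AZU1-PRTN3-ELANE cluster, chosen after seeing the data as was the use of canonical starts only, 32, 31, 8 and 5 peaks remained. With summits within 200 bp, shared peaks were 8 in every list, and AML1-ETO peaks found at both times were 21 and 21. With 50% of the peak covered, shared AML1-ETO peaks were 7 and 8, and where both peaks had a −log10 q of 5 or more, 9 of the AML1-ETO peaks at 48 h and 9 of the ETO2-GLIS2 peaks at 12 h were shared. In a window of 100 bp, Runt and C/EBP matches for AML1-ETO at 48 h were 6 and 2, and Runt, GLIS, C/EBP and E-box matches for ETO2-GLIS2 at 48 h were 3, 1, 1 and 3. Counts of genes with a promoter peak stayed within the limit under all 4 alternatives tried, which were starts taken within 3 kb, the 5′ end only, the canonical start only and a −log10 q of 5 or more.

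No paired analysis was possible because each condition had 1 ChIP library, the labels carry no replicate numbers, and no test was made. Peak calling depends on depth, for which no adjustment was made, and binding below the threshold of a list is not seen. Differences between fusion proteins include those between clones, and differences between times those between libraries.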

Other observations

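Further peaks in the windows lay nearest to genes outside the set, and none of those given here was in the strongest 10% of its list. The AML1-ETO list at 48 h held 3 peaks nearest to the start of PGLYRP4, which encodes a peptidoglycan recognition protein, beside S100A9, the best at rank 21768 (20.6%), and at 12 h it held 1, at rank 38309 (54.1%). The start of YEATS4, a subunit of chromatin-modifying complexes, downstream of LYZ, had AML1-ETO peaks at rank 11474 (16.2%) at 12 h and rank 12966 (12.3%) at 48 h, both with a better rank than the AML1-ETO promoter peak of LYZ itself.

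Upstream of AZU1, peaks nearest to the starts of PLPPR3 and PTBP1, which encodes a splicing regulator, numbered 3 and 3 for AML1-ETO at 12 h and 9 and 2 at 48 h. Beyond CFD, 3 AML1-ETO peaks at 48 h were nearest to the start of MED16, a subunit of the Mediator complex, the best at rank 44473 (42.0%).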
